A study of Mus musculus with 6 samples.

Results

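The SIBLING genes (small integrin-binding ligand, N-linked glycoprotein) encode secreted acidic phosphoproteins of bone and dentin. The 5 members, Spp1 (ENSMUSG00000029304), Ibsp (ENSMUSG00000029306), Dmp1 (ENSMUSG00000029307), Mepe (ENSMUSG00000053863) and Dspp (ENSMUSG00000053268), were chosen by gene symbol from the 57010 genes of the count table. Their RNA was measured by bulk RNA sequencing in 6 libraries of monocytes, 3 mandibular-derived (S16, S19, S23) and 3 femur-derived (S13, S15, S18). All 6 libraries came from C57BL/6 mice aged 1 year (C57Bl/6J in the methods), for which the labels give no treatment or engineered allele, and the comparison asks whether osteoclast precursors of the jaw and of the leg differ in gene expression. Marrow was flushed from the dissected bones and monocytes were left after antibodies and a magnetic column had held back other marrow cells (negative selection), so cells that the antibodies do not bind can remain. The methods name male and female mice, but which sex, animal or batch a library came from is not given in the sources used here. The p-values therefore measure the spread between these libraries, which may be technical.

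SIBLING proteins carry an RGD tripeptide that integrins on the cell surface bind, and long acidic stretches that are phosphorylated by the kinase FAM20C and bind the calcium of hydroxyapatite. Osteopontin (Spp1) is made by osteoblasts and also by macrophages and osteoclasts, bone sialoprotein (Ibsp) mainly by osteoblasts, DMP1 and MEPE mainly by osteocytes, and DSPP mainly by the odontoblasts that form dentin. Proteases such as BMP1 cut DMP1 and DSPP into their working fragments.

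The family is a cluster on mouse chromosome 5. In GENCODE M21, on the GRCm38 build, the 5 members lie on the plus strand from 104170712 to 104441050, in the order Dspp (104170712 to 104180127), Dmp1 (104202613 to 104214102), Ibsp (104299171 to 104311469), Mepe (104325329 to 104338611) and Spp1 (104435118 to 104441050). The span is 270 kb, and the 5 members are all the protein-coding genes in it. Spp1 is overlapped on the same strand by Gm42793, an unverified model to which 0 to 80 counts per library were assigned.

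The stretch of 250 bases before the transcription start is shown for the 4 members with a promoter in the RefSeq table (GRCm38.p6). Of these members 3 were higher in the mandible, and Mepe, the nearest neighbour of Ibsp in the cluster, was at the limit of detection. Capitals mark ATTGG, the letters of an inverted CCAAT box, which were chosen after the sequences had been seen.
Dmp1 (chr5:104202367-104202616, plus strand): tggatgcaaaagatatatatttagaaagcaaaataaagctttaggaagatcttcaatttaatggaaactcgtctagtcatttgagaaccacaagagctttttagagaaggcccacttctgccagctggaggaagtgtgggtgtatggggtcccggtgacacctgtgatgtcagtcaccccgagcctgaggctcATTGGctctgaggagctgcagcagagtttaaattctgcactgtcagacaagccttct
Ibsp (chr5:104299037-104299286, plus strand): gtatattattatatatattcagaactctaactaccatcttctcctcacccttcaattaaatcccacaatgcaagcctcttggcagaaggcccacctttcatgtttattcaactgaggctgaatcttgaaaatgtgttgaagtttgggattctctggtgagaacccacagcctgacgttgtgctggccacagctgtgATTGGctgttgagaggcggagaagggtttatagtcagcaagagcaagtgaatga
Mepe (chr5:104325079-104325328, plus strand): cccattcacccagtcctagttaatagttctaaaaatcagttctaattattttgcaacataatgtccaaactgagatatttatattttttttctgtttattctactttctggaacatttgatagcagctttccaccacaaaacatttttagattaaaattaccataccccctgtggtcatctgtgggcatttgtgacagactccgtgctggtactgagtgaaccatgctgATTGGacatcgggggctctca
Spp1 (chr5:104434861-104435110, plus strand): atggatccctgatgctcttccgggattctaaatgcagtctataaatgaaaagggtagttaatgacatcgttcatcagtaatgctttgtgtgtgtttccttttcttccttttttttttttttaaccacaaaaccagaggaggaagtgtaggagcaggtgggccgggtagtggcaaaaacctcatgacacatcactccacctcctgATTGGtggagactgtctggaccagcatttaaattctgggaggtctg
Both strands were searched from 250 bases before to 50 bases after the start. ATTGG was held by all 4 members, on the plus strand, with its first base at position -57 in Dmp1, -54 in Ibsp, -21 in Mepe and -46 in Spp1, counted from the start at 0. It was also held by 37.4% of all 32544 promoter windows of this length. TTTAAA, which does not overlap ATTGG in these windows, was found in Dmp1 (-31), Spp1 (-20) and Mepe (5) and in 13.1% of all windows. The TATA box letters TATAAA were found in Ibsp (-28, minus strand), Spp1 (-211) and Mepe (-173, minus strand) and in 13.6% of all windows. The RUNX letters TGTGGT were found in Spp1 (-128) and Dmp1 (-164) on the minus strand and at both -118 (minus) and -80 (plus) in Mepe, in no position of Ibsp, and in 16.7% of all windows. The E-box CACGTG was in none of the 4 windows and in 7.17% of all, and the homeodomain letters TAATTA were in Mepe only (-208) and in 5.29% of all. These matches describe the letters of each window. The RefSeq starts lie 0 to 116 bases from the GENCODE starts, the farthest being that of Ibsp.

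The libraries held 15718782 to 25371474 counts on genes. Expression is given as counts per 1000000 (CPM) after TMM scaling, which corrects library totals for differences in RNA composition, and a count of 0 leaves room for up to 3 counts, or 0.133 to 0.172 CPM (counting error only). Differential expression was tested with the quasi-likelihood method of edgeR, Benjamini-Hochberg adjusted over 18114 genes, and a gene was called at an adjusted p under 0.05 and a fold of at least 2. The median log2 fold change of all tested genes was -0.04, and 2975 of the 18114 had an unadjusted p under 0.05. Of the same genes DESeq2 called 6.02% higher in the mandible, the exact test of edgeR 5.52% and limma-voom 2.8%. DESeq2 called 457 of them lower and the exact test 468. The labelled cell type was checked with 8 monocyte markers, whose summed expression was 6203 to 12457 CPM in femur libraries and 5673 to 9735 CPM in mandible libraries. Lyz2, the monocyte lysozyme, was at 7662 ± 2976 CPM (femur) and 6136 ± 1604 CPM (mandible), each the SD of 3 libraries, and 0 of the 8 were called by the edgeR quasi-likelihood test or by DESeq2 (1 had an unadjusted p under 0.05). Mandible library S23 differs from the other 5 in Xist, the RNA of the inactive X chromosome of female cells, with 1441 CPM against 0.553 CPM or less.

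Of the 5 SIBLING members, 4 were upregulated in mandibular-derived monocytes and Mepe had too few counts to be tested. In the same comparison 3.88% of all tested genes were called higher in the mandible. In Spp1, Ibsp, Dmp1 and Dspp every mandible library lay above every femur library, a pattern that 12.7% of all tested genes showed. The fold ranged from 4.82 for Ibsp to 78.6 for Dspp in the fitted model, and Dspp had almost no femur counts and passed the filter on low counts through its mandible counts alone. Without S23 the log2 fold changes of Spp1, Ibsp, Dmp1 and Dspp were 2.16, 1.997, 2.60 and 6.67, all still called. In bulk RNA, a change in the number of cells of a type and a change in the RNA per cell cannot be told apart.

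Spp1 encodes osteopontin, which osteoclasts bind through the integrin αvβ3. Femur libraries had 1059 (S13), 660 (S15) and 1086 (S18) counts and mandible libraries 3016 (S16), 5707 (S19) and 5432 (S23). These are 58.5, 30.4 and 48.0 CPM against 151, 271 and 311 CPM, and the lowest mandible library was 2.58-fold above the highest femur library. Mean expression rose from 45.6 ± 14.2 CPM to 244 ± 83.2 CPM (SD of 3 libraries each), and the log2 fold change was 2.42 with a standard error (SE) of 0.36 and an adjusted p of 0.00239 (edgeR quasi-likelihood test, Benjamini-Hochberg adjusted). With an exact two-sided permutation test, p was 0.1 for Spp1, Ibsp, Dmp1 and Dspp alike, the smallest that 3 against 3 libraries allow.

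Ibsp encodes bone sialoprotein, which nucleates hydroxyapatite. Femur libraries had 744 (S13), 627 (S15) and 603 (S18) counts and mandible libraries 3773 (S16), 1649 (S19) and 3479 (S23). In CPM these are 41.1, 28.9 and 26.6 against 189, 78.3 and 199. The femur libraries were close together, whereas S19 was the lowest mandible library for Ibsp although it was near the highest for Spp1. Mean expression rose from 32.2 ± 7.78 CPM to 155 ± 66.9 CPM (SD of 3 libraries each), and the log2 fold change was 2.27 (SE 0.37, adjusted p = 0.00436 by the edgeR quasi-likelihood test, Benjamini-Hochberg adjusted).

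Dmp1 encodes dentin matrix protein 1, which osteocytes use to hold back the phosphate hormone FGF23. Femur libraries had 53 (S13), 28 (S15) and 91 (S18) counts and mandible libraries 419 (S16), 286 (S19) and 852 (S23). This is 2.93, 1.29 and 4.02 CPM against 21.0, 13.6 and 48.7 CPM, with no overlap. S23 was the highest mandible library and carried much of the spread of that group. Mean expression rose from 2.75 ± 1.37 CPM to 27.8 ± 18.5 CPM (SD of 3 libraries each), and the log2 fold change was 3.33 (SE 0.59, adjusted p = 0.0071 by the edgeR quasi-likelihood test, Benjamini-Hochberg adjusted). Without S23 the change was smaller (adjusted p = 0.0446 by the edgeR quasi-likelihood test).

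Dspp encodes dentin sialophosphoprotein, the main noncollagenous protein of dentin. Femur libraries had 0 (S13), 15 (S15) and 0 (S18) counts and mandible libraries 477 (S16), 573 (S19) and 101 (S23). The 3 mandible libraries were at 23.9, 27.2 and 5.78 CPM, and femur S15, at 0.691 CPM, held all femur counts. Mean expression rose from 0.230 ± 0.399 CPM to 18.9 ± 11.5 CPM (SD of 3 libraries each), and the log2 fold change was 6.30 (SE 1.21, adjusted p = 0.011 by the edgeR quasi-likelihood test, Benjamini-Hochberg adjusted). The fold rests on 1 femur library: without S15 both remaining femur libraries are at 0, and the fitted log2 fold change was 11.54. Against 3 counts in S13 or S18, the mandible mean was at least 114-fold higher and the lowest mandible library at least 34.9-fold. With S15 kept the fold of the means was 82.3, so 114 is no lower limit for the femur as a group. Without mandible S19 the call was lost (log2 fold change 5.89, adjusted p = 0.0912), as it was with limma-voom (7.74, adjusted p = 0.0991), and over all alternatives the adjusted p ranged from 1.5e-16 to 0.0991 (edgeR's, DESeq2's or limma's test with Benjamini-Hochberg adjustment).

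Mepe encodes matrix extracellular phosphoglycoprotein, an osteocyte product that restrains mineralization. Femur libraries had 3 (S13), 3 (S15) and 5 (S18) counts and mandible libraries 0 (S16), 0 (S19) and 7 (S23), so that it did not pass the filter on low counts. The mandible libraries lay on both sides of the femur libraries. With every gene that had a count kept, its log2 fold change was -0.43 (SE 3.50, adjusted p = 0.96 by the edgeR quasi-likelihood test, Benjamini-Hochberg adjusted), so no difference was detectable at this depth and no fold is given.

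**Figure D1:**
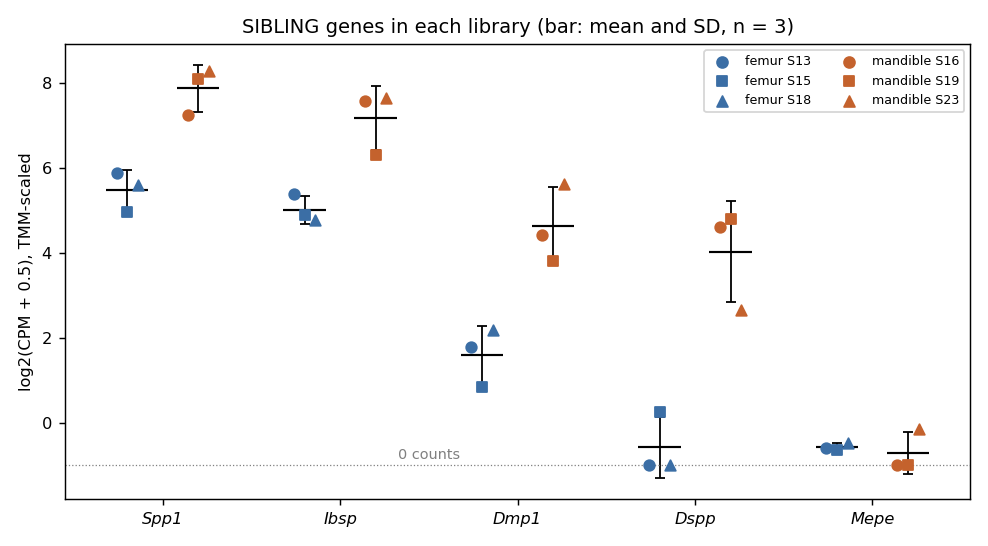
Expression of the 5 SIBLING genes as log2(CPM + 0.5) in each library, with femur libraries in blue, mandible libraries in orange, and bars for the mean and SD of 3 libraries; the dotted line is a count of 0. For Spp1, Ibsp, Dmp1 and Dspp the mandible libraries sit above all femur libraries, whereas Mepe stays near the line in both groups.

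Levels of different genes were compared as CPM per kilobase of the gene length listed in the count table. Spp1 was the most abundant member, with 27.7 ± 8.61 CPM per kb in the femur and 148 ± 50.5 in the mandible (SD, n = 3). Ibsp followed with 15.6 ± 3.76 and 75.1 ± 32.4 CPM per kb, Dmp1 with 0.993 ± 0.497 and 10.04 ± 6.71, and Dspp with 0.0520 ± 0.0900 and 4.28 ± 2.60. Mepe was at 0.104 ± 0.0250 and 0.0793 ± 0.137 CPM per kb. Spp1 ranked first and Ibsp second in all 6 libraries. Dmp1 came next in 5 libraries, and in mandible S19 Dspp took that place (6.14 against 4.91 CPM per kb). Within every library Spp1 was above Ibsp, by as little as 91.6 against 91.3 CPM per kb in S16. Across libraries their ranges overlapped in both groups, since the lowest Spp1 level (18.5 in the femur, 91.6 in the mandible) was below the highest Ibsp level (19.9 and 96.2). Dmp1 and Dspp also overlapped in the mandible, with ranges of 4.91 to 17.6 and 1.30 to 6.14 CPM per kb.

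The summed CPM of the family was 61.4 to 103 CPM in femur libraries and 385 to 565 CPM in mandible libraries, and the mean shares per length of its main members were close in the groups. Spp1 made up 61.8 ± 5.62% of the family in the femur and 62.0 ± 15.2% in the mandible (SD, n = 3, exact permutation p = 1). The share of Ibsp was 35.6 ± 6.32% and 32.0 ± 14.4% (exact permutation p = 0.8). Equal shares are not shown by these p-values, because the mandible libraries spread widely: Spp1 took 46.8% in S16, 77.1% in S19 and 62.0% in S23, and Ibsp 46.6%, 17.7% and 31.7%. As a share of counts, with its exact Clopper-Pearson interval of 95% (counting error only), Spp1 took 39.2% (38.2 to 40.3%) of the family in S16 and 69.5% (68.5 to 70.5%) in S19, so these libraries differ by more than counting error.

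The mean shares of Dmp1 and Dspp were larger in the mandible, with groups that overlapped, and that of Mepe was smaller. Dmp1 made up 2.21 ± 1.01% of the family per length in the femur and 3.99 ± 1.75% in the mandible, and Dspp 0.157 ± 0.272% and 2.02 ± 1.38% (SD, n = 3, exact permutation p = 0.2 each). The Dspp share was 2.75% in S16, 2.88% in S19 and 0.429% in S23, the last within the femur range, whose top is 0.471% in S15. The share of Mepe was 0.241 ± 0.0638% and 0.0261 ± 0.0452% with no overlap (exact permutation p = 0.1), on 11 femur and 7 mandible counts. A share also falls when the other members rise, so this is no fall of Mepe itself. Its CPM, 0.175 ± 0.0421 in the femur and 0.133 ± 0.231 in the mandible, overlapped between the groups (exact permutation p = 0.6). Of the 6 ratios between 2 of the tested members, none reached a p below 0.2 (exact two-sided permutation test), and the ratio of Spp1 to Ibsp changed by 0.23 on the log2 scale, from 0.47 ± 0.38 to 0.70 ± 1.05.

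**Figure D2:**
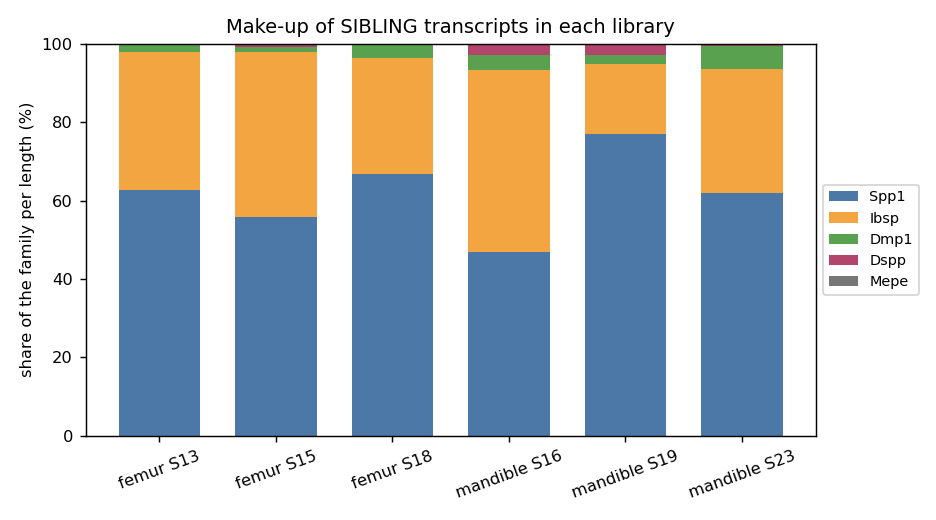
Share of each SIBLING gene in the family's summed CPM per kilobase, in percent, for each library. Spp1 and Ibsp fill most of every bar, Spp1 ranges from 46.8% in S16 to 77.1% in S19, and the shares of Dmp1 and Dspp stay below 6% in each library.

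Spp1, Ibsp and Dmp1 rose by less than the abundant bone collagen gene. Col1a1, the chain of type I collagen that makes up most of the organic bone matrix, went from 32.2 ± 11.5 to 5801 ± 1160 CPM (SD of 3 libraries each), with a log2 fold change of 7.49. The log2 ratio of Spp1 to Col1a1 (0.5 CPM added to each) was 0.50 ± 0.93 in the femur and -4.61 ± 0.31 in the mandible, a difference of -5.11. For Ibsp it was 0.03 ± 0.63 and -5.32 ± 0.77, a difference of -5.34, and for Dmp1 -3.38 ± 1.16 and -7.86 ± 0.74, a difference of -4.48. For all 3 ratios the groups were fully separate (exact permutation, two-sided, p = 0.1, the smallest possible). The plain ratio of Ibsp to Col1a1 CPM ran from 0.637 to 1.53 in the femur and from 0.0139 to 0.0399 in the mandible. With Sparc (osteonectin) as the reference, which rose from 17.3 ± 4.66 to 669 ± 86.8 CPM, the differences were -2.87 for Spp1, -3.10 for Ibsp and -2.24 for Dmp1. Such ratios show unequal change only. Dspp and Mepe were left out because femur libraries were at 0 or near it.

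**Figure D3:**
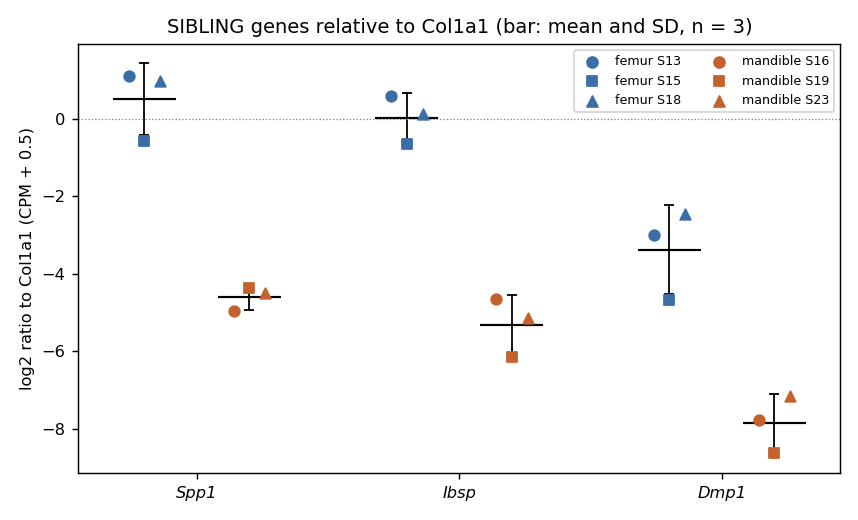
log2 ratio of Spp1, Ibsp and Dmp1 to Col1a1 (0.5 CPM added to each) in every library, with femur in blue and mandible in orange. For Spp1 and Ibsp the femur libraries lie near 0 and the mandible libraries between -4.37 and -6.16, and for Dmp1 every mandible library is at or below -7.16.

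Other bone matrix and mineral genes were compared as a list. Of its 11 genes 10 were tested, 5 were upregulated and 0 downregulated (5 also had an unadjusted p under 0.05), with a median log2 fold change of 3.32. Beside Col1a1 and Sparc these were Col1a2, the second chain of type I collagen (52.3 ± 9.95 to 3155 ± 815 CPM), Bglap, which encodes osteocalcin (0.301 ± 0.387 to 20.4 ± 7.88 CPM, log2 fold change 6.05), and its neighbouring copy Bglap2. Bglap, Bglap2 and Bglap3 are near-identical, so the assignment of reads among them is uncertain. Bglap and Bglap2 had few femur counts and passed the filter on low counts through their mandible counts. The summed CPM of the list was 128 to 162 CPM in femur libraries and 7862 to 11930 CPM in mandible libraries. With at least 10 counts required in every library, 3 genes of this list were called.

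Among 9 transcription factors that act on SIBLING or bone genes, 5 were upregulated and 0 downregulated, 7 had an unadjusted p under 0.05, and the median log2 fold change was 4.17. Runx2, the master factor of osteoblasts, rose from 36.1 ± 6.01 to 87.4 ± 19.5 CPM (log2 fold change 1.27). Dlx3, a homeodomain factor of teeth, rose from 0.108 ± 0.186 to 21.3 ± 4.57 CPM (log2 fold change 7.51), and Dlx5 from 0.136 ± 0.121 to 11.8 ± 9.15 CPM. Dlx3 and Dlx5 had almost no femur counts and passed the filter on low counts through their mandible counts alone. Sp7 (osterix), named after its value was seen, rose from 0.502 ± 0.364 to 10.8 ± 1.19 CPM, and also passed this filter through its mandible counts. Atf4, the most abundant factor of the list, was at 193 ± 14.1 and 193 ± 23.1 CPM. Without mandible S19, 3 of these factors were called, and Runx2 and Sp7 (adjusted p = 0.0615) were not. Runx2 was also not called without femur S13, without mandible S23 or with the length correction (log2 fold change 0.79, adjusted p = 0.132), Dlx5 was not called by limma-voom (adjusted p = 0.107), and 2 factors were called where every library needed 10 counts (edgeR quasi-likelihood test, Benjamini-Hochberg adjusted).

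The enzymes of SIBLING phosphorylation and processing, a list that also holds phosphatases such as Alpl, rose in part. Of 15 enzymes 13 were tested, 6 were upregulated and 0 downregulated, 10 had an unadjusted p under 0.05, and the median log2 fold change was 2.76. Alpl, the tissue-nonspecific alkaline phosphatase, rose from 2.88 ± 0.793 to 73.7 ± 49.8 CPM (log2 fold change 4.68). Mmp2, a gelatinase, rose from 1.85 ± 0.529 to 156 ± 57.5 CPM (6.38), and Mmp20, the enamel protease enamelysin, from 0.292 ± 0.505 to 83.7 ± 33.8 CPM (8.09). Mmp20 had almost no femur counts and passed the filter on low counts through its mandible counts alone. Outside the rule for named genes, and named after their values were seen, are 3 enzymes that act directly on the family. Fam20c, the SIBLING kinase, rose from 14.6 ± 6.35 to 37.3 ± 1.32 CPM (log2 fold change 1.36, SE 0.35, adjusted p = 0.0484 by the edgeR quasi-likelihood test, Benjamini-Hochberg adjusted). Its call was lost without any 1 library other than femur S15, without normalization factors and with the length correction (adjusted p of 0.0063 to 0.219 over its alternatives). Bmp1 rose from 5.07 ± 1.88 to 34.4 ± 8.67 CPM (2.76), and Phex, an osteocyte peptidase, was at 2.60 ± 0.539 and 5.34 ± 0.814 CPM without a call. Furin (78.1 ± 16.3 and 126 ± 14.9 CPM) and Mmp9 (121 ± 145 and 130 ± 36.0 CPM) were not called.

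Receptors of the family moved in both directions. Of 10 receptor genes, 2 were upregulated (Itgb5 and Itgav) and Itgb3 was downregulated, where 1.30% of all tested genes were called lower, and the median log2 fold change was 0.47. Itgb3 encodes integrin β3, which with αv forms the osteopontin receptor of osteoclasts, and its expression fell from 291 ± 57.0 to 91.3 ± 17.4 CPM (log2 fold change -1.67, SE 0.28, adjusted p = 0.00506 by the edgeR quasi-likelihood test, Benjamini-Hochberg adjusted). Every mandible library lay below every femur library for Itgb3, as for 11.5% of all tested genes. Itgb5, the β5 partner of αv, rose from 34.6 ± 7.84 to 128 ± 37.0 CPM (1.88). Itgav rose from 51.1 ± 2.41 to 104 ± 22.8 CPM (log2 fold change 1.02, adjusted p = 0.0422 by the same test). The call of Itgb3 was lost without mandible S19 (adjusted p = 0.0563), and that of Itgav without femur S13, femur S18, mandible S19 or mandible S23 and under 3 other alternatives (adjusted p up to 0.363). Cd44, which binds osteopontin, was at 350 ± 84.6 and 402 ± 60.6 CPM, Itga4 at 313 ± 22.9 and 428 ± 36.3 CPM, and Itgb1 at 204 ± 65.1 and 285 ± 43.2 CPM, all without a call.

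**Figure D4:**
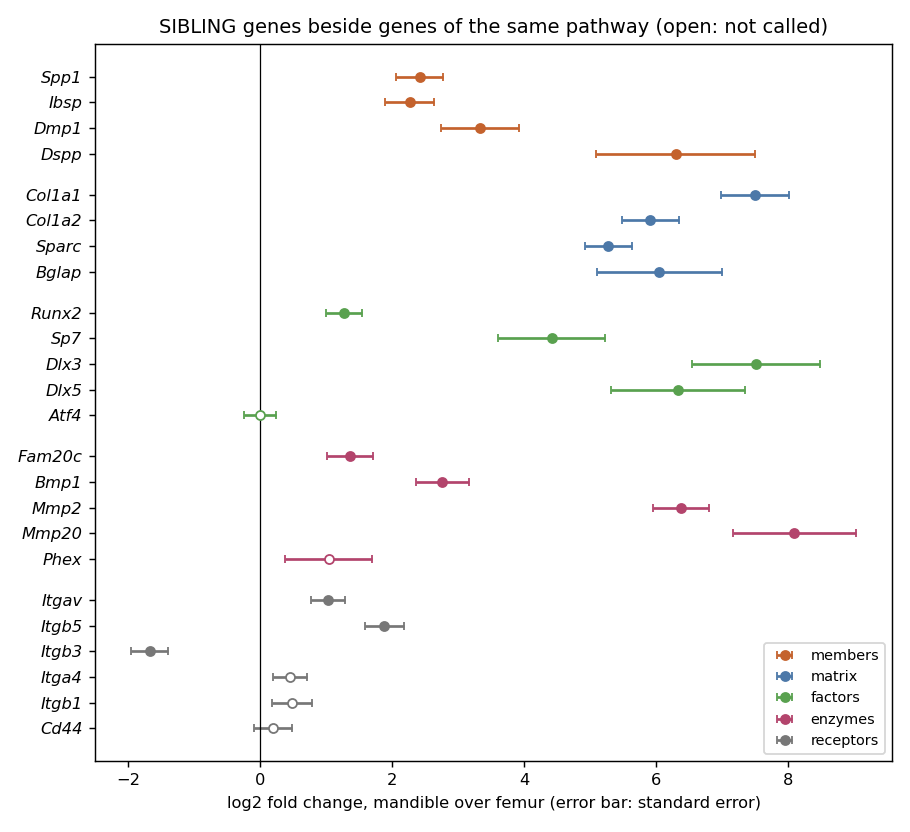
log2 fold change of mandible over femur with its standard error for the 4 tested SIBLING genes and for matrix genes, transcription factors, enzymes and receptors; open points were not called. Spp1 and Ibsp lie at 2.42 and 2.27, below Col1a1 at 7.49, and Itgb3 is the gene left of 0 that was called.

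Markers of cell types known to make these proteins, or found beside bone and teeth, were counted in the same comparison. Of 9 osteoblast markers 8 were upregulated (median log2 fold change 5.27), where 3.88% of all tested genes were called higher. The summed CPM of these markers was 125 to 159 CPM in femur libraries and 7921 to 12109 CPM in mandible libraries. These include genes of the matrix, factor and enzyme lists above. Among them Bglap, Bglap2 and Sp7 had few femur counts (means of 0.301, 0.184 and 0.502 CPM). These genes passed the filter on low counts through their mandible counts. Of the osteoblast markers 5 were called without mandible S19, 5 with at least 10 counts required in every library, and 6 without mandible S23. Of 5 odontoblast markers 4 were tested and Smpd3, a sphingomyelinase, was upregulated from 1.16 ± 0.523 to 21.4 ± 17.3 CPM, with a sum over the list of 1.60 to 7.14 CPM in femur libraries and 22.6 to 59 CPM in mandible libraries. All 4 had an unadjusted p under 0.05, DESeq2 called 2, and limma-voom called 0. Nes was at 1.56 ± 1.48 and 13.3 ± 2.88 CPM and Wnt10a at 0.527 ± 0.0623 and 3.37 ± 2.03 CPM. Of the 3 femur libraries S15, which held all femur Dspp counts, had the highest sum of odontoblast markers (7.14 against 1.60 and 2.87 CPM). It was also highest for osteocyte markers (4.10 against 1.10 and 0.309 CPM) and ameloblast markers (1.75 against 0.221 and 0.398 CPM). The same held for bone matrix and mineral genes (162 against 150 and 128 CPM), so this was not particular to odontoblast markers. For periodontal ligament markers S15 was the lowest (2.40 against 5.63 and 2.56 CPM). The same library was the lowest in the femur for Spp1 (30.4 CPM) and Dmp1 (1.29 CPM) and lay in between for Ibsp (28.9 CPM).

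Of 7 osteocyte markers 4 were tested and 0 were called by the edgeR quasi-likelihood test. Of these, 3 had an unadjusted p under 0.05, DESeq2 called 2 and edgeR's exact test 1. Their sum was 0.309 to 4.10 CPM in femur libraries and 13.2 to 19.1 CPM in mandible libraries, with Pdpn (podoplanin) at 0.383 ± 0.454 and 7.74 ± 2.46 CPM, Irx5 at 0.243 ± 0.254 and 3.77 ± 2.47 CPM, and Fbln7 at 0.184 ± 0.319 and 3.16 ± 2.76 CPM. Sost, Fgf23 and Dkk1, which are known from osteocytes, had too few counts to be tested, and Fgf23 had 0 counts in all femur libraries. All 5 ameloblast markers were upregulated. They had few or no femur counts and passed the filter on low counts through their mandible counts alone. With at least 10 counts required in every library 0 of them were called. Their sum was 0.221 to 1.75 CPM in femur libraries and 5695 to 11213 CPM in mandible libraries, led by the enamel matrix genes Amelx (4386 ± 1830 CPM in the mandible), Ambn (2612 ± 861 CPM) and Enam (1028 ± 249.0 CPM), and Odam had 0 counts in all femur libraries. Of the periodontal ligament markers 3 were tested and 2 were upregulated, Postn (3.38 ± 1.95 to 189 ± 59.9 CPM) and Aspn (0.0154 ± 0.0266 to 6.13 ± 1.86 CPM), with a sum of 2.40 to 5.63 CPM in femur libraries and 130 to 246 CPM in mandible libraries. Aspn had almost no femur counts, and with at least 10 counts required in every library 1 of these markers was called. Tnmd was listed at 0 counts in all femur libraries and at 2.15 ± 0.934 CPM in the mandible. The part of these cells in the rise of the SIBLING genes was not tested.

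Markers of the myeloid cells that can make osteopontin were counted in the same way. Of 8 macrophage markers 0 were called higher by the edgeR quasi-likelihood test or by DESeq2, and Vcam1 was called lower (64.7 ± 34.7 to 14.9 ± 7.81 CPM, with 3 of the 8 at an unadjusted p under 0.05), while DESeq2 and the exact test of edgeR each called 2 lower. Among the genes of highest mean in this list, Cd68 was at 51.7 ± 17.9 and 67.4 ± 6.94 CPM and Adgre1, the F4/80 antigen, at 48.8 ± 14.1 and 48.0 ± 13.6 CPM. The median log2 fold change of the list was -1.04, and 3 of the 8 were above 0. Of all 18114 tested genes 8660 were above 0, the share to set beside this count and that of the next list. For 3 of the 8 every mandible library lay below every femur library, as for 11.5% of all tested genes. Of 7 genes that mark Spp1-positive macrophages, 0 were called higher by either test and Cd9 was called lower (106 ± 46.4 to 35.3 ± 3.47 CPM), while DESeq2 and edgeR's exact test each called 2 lower, with a sum over the list of 521 to 1045 CPM in femur libraries and 521 to 854 CPM in mandible libraries. The median log2 fold change of these 7 genes was -0.65, 1 was above 0 and 3 had an unadjusted p under 0.05. Apoe (223 ± 114 and 337 ± 97.8 CPM), Lgals3 (278 ± 73.8 and 223 ± 63.9 CPM) and Fabp5 (89.6 ± 13.99 and 57.0 ± 15.1 CPM) were not called. The calls of Vcam1 (adjusted p up to 0.183) and Cd9 (up to 0.117) were lost when any 1 library other than femur S15 was left out. Of 6 osteoclast markers 3 were tested and 0 were called by the edgeR quasi-likelihood test or by DESeq2 (1 had an unadjusted p under 0.05), with the protease gene Ctsk at 9.85 ± 5.92 and 26.3 ± 13.96 CPM, Atp6v0d2 at 3.40 ± 1.29 and 6.06 ± 1.69 CPM, and Ocstamp at 0.261 ± 0.452 and 0.853 ± 0.763 CPM. With every gene that had a count kept, Ctsk was called higher (adjusted p = 0.0308 by the edgeR quasi-likelihood test).

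The genes next to the cluster were described in the same way. Sparcl1, a relative of Sparc just before Dspp, rose from 0.558 ± 0.618 to 15.5 ± 2.34 CPM (SD of 3 libraries each), with a log2 fold change of 4.78 (SE 0.87, adjusted p = 0.00803 by the edgeR quasi-likelihood test, Benjamini-Hochberg adjusted). Its counts were 7, 27 and 1 in femur S13, S15 and S18 and 258, 368 and 282 in mandible S16, S19 and S23, respectively. With so few femur counts, Sparcl1 passed the filter on low counts through its mandible counts. Pkd2, which encodes the ion channel polycystin-2 just after Spp1, rose from 14.7 ± 9.90 to 57.0 ± 30.8 CPM (log2 fold change 1.95, adjusted p = 0.0494 by the same test). Farther out, Nudt9 (24.2 ± 9.13 and 33.2 ± 20.7 CPM, log2 fold change 0.46) and Zfp951 (5.47 ± 0.888 and 5.03 ± 2.75 CPM, -0.12) were not called, Gm17660 had 0 counts in every library, and BC005561 was not analysed here. The call of Sparcl1 was lost without mandible S19 (adjusted p = 0.0635). That of Pkd2 was lost under 8 of 15 alternatives, among them leaving out any 1 library other than femur S15 (adjusted p up to 0.237).

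**Figure D5:**
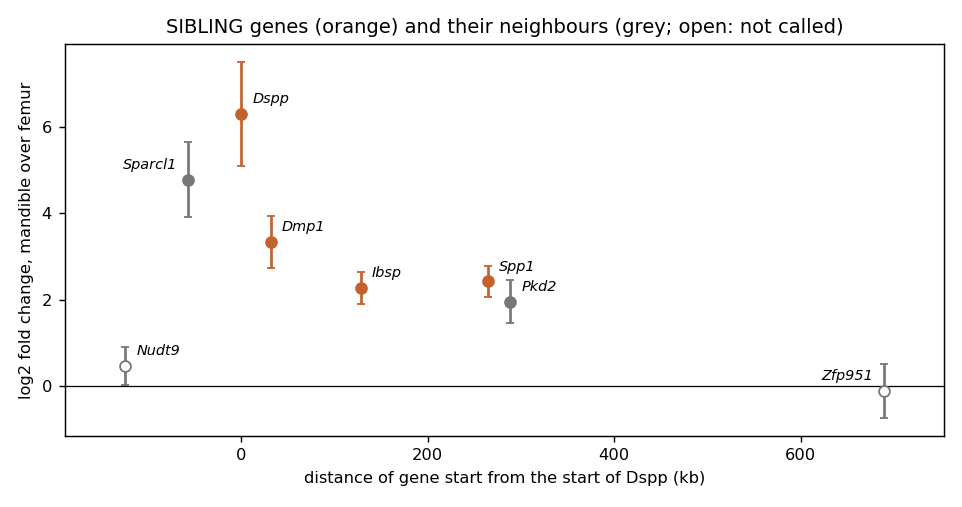
log2 fold change of mandible over femur, with its standard error, against the distance of each gene's start from that of Dspp in kb, for the 4 tested SIBLING genes (orange) and 4 neighbours (grey, open where not called). Sparcl1 at 4.78 and Pkd2 at 1.95 flank the cluster, and Nudt9 and Zfp951 lie near 0.

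The genes whose pattern over the 6 libraries was most like that of each member were found by the root mean square (RMS) difference of log2 CPM, each centred on its own mean. For Spp1 these were Kank2, Ckb (brain creatine kinase) and Celsr1 (a cadherin of planar cell polarity), with RMS differences of 0.25, 0.26 and 0.27 on the log2 scale. For Ibsp they included Gm37248 and Eno3 (muscle enolase), at 0.25 and 0.27. For Dmp1 they were Prr16, Cystm1 and Ajuba (0.35, 0.40 and 0.41), and for Dspp Sema3d (a semaphorin), Myh4 (a fast muscle myosin) and Myoc (0.64, 0.65 and 0.73). The members were not each other's nearest patterns. In likeness to Spp1, Ibsp stood at rank 283 and Dmp1 at rank 366 (RMS 0.66 and 0.72), and Dspp at rank 16923 of the tested genes (RMS 2.51). The values were not scaled, so the measure also counts the size of the change (log2 fold change 6.30 for Dspp and 2.42 for Spp1). A late rank of Dspp therefore does not show an opposite pattern. In likeness to Dmp1, Spp1 stood at rank 80, Ibsp at rank 127 and Dspp at rank 14894. These likenesses describe 6 libraries in 2 groups and have no test.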

How the data were processed

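Monocytes of the mandible and femur were sequenced as bulk RNA in 3 libraries each. Per the labels and the study's methods, the authors ran Trimmomatic and FastQC on paired-end reads, aligned these with HISAT2 2.1.0 to GRCm38 and deposited raw counts per gene from featureCounts, without normalization. Strand and multimapping settings are not given in the sources used here. Gene positions in the table did not match GRCm38, so positions were taken from GENCODE M21 by Ensembl identifier, and lengths from the table.

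The test was edgeR 4.0.16 in R 4.3.3 (quasi-likelihood, TMM, prior count 0.125, no covariates, low counts removed by filterByExpr at 10 counts and a total of 15), with Benjamini-Hochberg adjustment over 18114 genes; SE was derived from the fold change and its F statistic. Log ratios of CPM used a pseudocount of 0.5 CPM and an exact permutation test (SciPy 1.17.1). Scripts were tested on simulated data. Alternatives used limma-voom (limma 3.58.1), DESeq2 1.42.0, the exact test of edgeR, RLE or no size factors, other filters, prior counts, pseudocounts, thresholds and reference gene, a loess of log2 CPM on gene length (span 0.4) and each library left out. The members and lists were chosen with earlier results of these data known. Named genes were the members, the 3 nearest protein-coding neighbours on either side, in each list up to 3 genes of highest mean CPM and up to 3 called genes of largest change, and the 3 genes most like each tested member; a few genes named by it are not reported here. The qRT-PCR and culture experiments were not analysed here. Libraries held 15718782 to 25371474 counts, which limits a count of 0 to 0.133 to 0.172 CPM.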

Additional observations from a re-analysis of the deposited data

How the results depend on the processing

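No paired analysis was possible because the sources used here do not give which animal each library came from. Spp1, Ibsp and Dmp1 kept their direction and their call under all 15 alternatives, and with 1 library left out their log2 fold changes ranged from 2.15 to 2.67, 1.997 to 2.54 and 2.60 to 3.72. Dspp kept its direction under 14 and could not be tested with 10 counts required in every library. Its log2 fold change was 7.74 with limma-voom, where it was not called, and 5.72 to 11.54 with 1 library left out, where the call was lost without mandible S19. The number of members called was 4, or 3 with limma-voom, with 10 counts in every library, at an adjusted p under 0.01 and without mandible S19. Mepe could be tested only with every gene kept, and Mepe and Dspp relative to Col1a1 were not run. With Sparc in place of Col1a1 the differences were -2.87 (Spp1), -3.10 (Ibsp) and -2.24 (Dmp1), against -5.11, -5.34 and -4.48, and the larger rise of Col1a1 than of Sparc makes up this change. Of 65 named genes beside the members, 36 were called, and 19 of these kept their call under every alternative while 17 lost it under some; all 36 kept their direction. Of the other 29, 8 were called under some alternative. Of 390 counts of called genes per list and direction, 346 were unchanged or stayed within 1.5 times and 44 moved. Many of the 346 were 0 in the main run and 0 again, so this number overstates how stable the counts above 0 were. The direction of 9 genes that were not called turned under some alternative, all with log2 fold changes within 0.5 of 0, and the cause was not tested. Without normalization factors Adgre1 was at 0.079, Atf4 at 0.095 and Zfp951 at 0.000201. Atf4 was at 0.0292 with DESeq2, 0.0292 with RLE size factors and 0.0101 with 10 counts in every library. With the length correction Atf4 was at 0.11, Ccr2 at -0.31, Cd44 at -0.15, Itga4 at -0.20 and Lyz2 at 0.087. Ccr2 was at -0.012 with limma-voom and -0.019 with every gene kept. With 1 library left out the ranges were -0.20 to 0.25 for Adgre1, -0.098 to 0.045 for Atf4, -0.25 to 0.25 for Ccr2, -0.0073 to 0.39 for Cd44, -0.44 to 1.78 for Mmp9, -0.18 to 0.79 for Nudt9 and -0.69 to 0.18 for Zfp951. The number of genes called higher over the whole table was 702 and ranged from 376 without mandible S19 to 1091 with DESeq2, and the number called lower was 236 and ranged from 58 without mandible S19 to 608 without femur S15. A count of 0 allows up to 0.172 CPM in the shallowest library.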
